A study of Trachinotus ovatus with 6 samples.

Results

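The genes described here were expressed at a substantial level in the testis of a marine teleost, the golden pompano Trachinotus ovatus, and were almost absent from its ovary. They were chosen from the deposited expression values by a fixed rule: each of 3 testes at 1 FPKM or more, a testis mean of at least 10 FPKM, and each of 3 ovaries under 0.1 FPKM. FPKM, the fragments mapped to a gene model scaled by its length and by the size of the library, is a relative unit. The rule picked 224 of the 22062 listed genes, a share of 1.02%. A further 1935 genes met the same limits in every library but had a testis mean below 10 FPKM, and they are called low testis-restricted genes; both sets together made up 9.79% of the table. The study sequenced total RNA from the testes of 3 males and the ovaries of 3 females, with no treatment beyond removal of the gonad, to compare gene expression between the sexes. Nothing in the labels states the age, weight or maturity of the fish. Because the rule used all 6 libraries and the only contrast of the study, testis and ovary levels are given as a description without a test.

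In fish, as in other vertebrates, sperm form from spermatogonia through meiotic spermatocytes and haploid spermatids, and in teleosts these germ cells mature in groups inside cysts of Sertoli cells. Meiotic and haploid germ cells are known for transcribing many genes that other tissues keep silent. The ovary holds oocytes, which store large amounts of maternal transcripts. The table pairs its identifiers with positions but with no gene symbol or protein name, so what the 224 genes encode, and the levels of cell type markers, are not given here. In whole gonads, more cells of a type and more RNA per cell cannot be told apart.

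The summed values of the libraries were 485022 to 490967 FPKM in testes and 658899 to 796856 FPKM in ovaries, and read depth is unknown. No library repeated another. In most of the genes described here the testes formed a graded order with testis 2 at the top, and the other testes also differed from each other. The summary values that rest most on testis 2 are also given without it.

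The 224 genes differed widely in their testis level, and most of them lay near the lower end. Their median testis mean was 22.2 FPKM, with 14.1 and 40.3 FPKM at the 25th and 75th percentiles. A testis mean from 10 to below 20 FPKM was found for 103 genes, from 20 to below 50 FPKM for 78, from 50 to below 100 FPKM for 23, and of 100 FPKM or more for 20. The median over the genes was 15.4 FPKM in testis 1, 28.9 FPKM in testis 2 and 20.5 FPKM in testis 3, against 0.0181 FPKM in ovary 1, 0.0289 FPKM in ovary 2 and 0.0196 FPKM in ovary 3. The lowest value of any of them in a testis was 4.64 FPKM. Every testis lay above every ovary for all 224 genes, which the rule fixes; the same held for 71.4% of all listed genes. Without testis 2 the rule gave 214 genes with a median testis mean of 19.3 FPKM. Together the 224 genes held 1.89%, 3.15% and 2.37% of the summed FPKM of testes 1, 2 and 3. The 10 highest of them held 43.7% of their summed testis means.

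**Figure D1:**
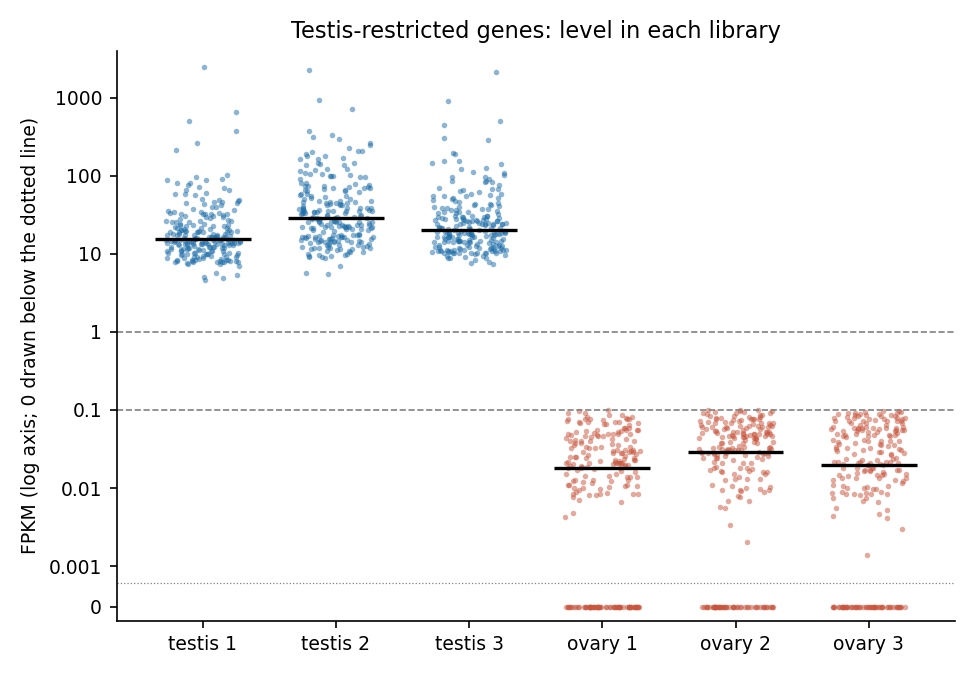
Level of each of the 224 testis-restricted genes in each library (FPKM, log axis), with testes in blue, ovaries in red, black bars for medians, dashed lines at 1 and 0.1 FPKM and values of 0 drawn below the dotted line. Medians were 15.4, 28.9 and 20.5 FPKM in the testes and 0.0181, 0.0289 and 0.0196 FPKM in the ovaries.

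A single gene led the set by a wide margin. SCSFRI_TO_T_00041398, on linkage group 24 (13325614 to 13336120), stood at 2488, 2241 and 2146 FPKM in testes 1, 2 and 3, against 0.0372, 0.0382 and 0.0275 FPKM in ovaries 1, 2 and 3. These are means of 2292 ± 177 FPKM (SD, n = 3) in testes and 0.0343 FPKM in ovaries, a ratio of 66817, and the gene alone held 19.1% of the summed testis means of the 224. It was also among the 5 steadiest between testes, with a coefficient of variation (CV, the SD divided by the mean over 3 testes) of 0.0771. No other listed gene overlaps its span of 10507 bp. SCSFRI_TO_T_00048955, on linkage group 18 (18416900 to 18418350), came next, at 647, 727 and 915 FPKM in the testes, and was listed at 0 in every ovary. Its 1451 bp lie inside the spans of 2 longer genes, which had testis means of 26.6 and 41.2 FPKM and ovary means of 4.73 and 29.2 FPKM. The short gene was thus far above both of its host loci in testis and at 0 in ovaries where both hosts were detected.

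Among the other 8 of the 10 highest genes, 2 varied less between testes than the median gene of the set (CV 0.398), and 6 varied more. On linkage group 21, the gene from 17753076 to 17754751 reached 373, 372 and 511 FPKM in testes 1, 2 and 3 and was listed at 0 in the ovaries. On linkage group 19, the gene from 8705394 to 8715331 reached 266, 203 and 287 FPKM in the testes and 0.0203 to 0.0679 FPKM in the ovaries. The CVs of these 2 genes were 0.191 and 0.173. The median was 0.128 over the genes outside the set with a testis mean of at least 10 FPKM. Of the remaining 6, 5 were highest in testis 2 and lowest in testis 1. The gene on linkage group 2 (14118220 to 14120697) reached 213, 941 and 449 FPKM in testes 1, 2 and 3 and was at 0 in every ovary. A longer gene, on linkage group 14 (21788907 to 21800007), reached 103, 317 and 189 FPKM in the testes and was above 0 in ovary 1 only, at 0.0478 FPKM. A gene of 1590 bp, on linkage group 22 (7336531 to 7338120), reached 97.3, 293 and 153 FPKM and was at 0 in every ovary. These genes shared the order testis 2, testis 3, testis 1, and so did 2 more. These were the gene on linkage group 11 (15839766 to 15843459), with 59.7, 337 and 112 FPKM in testes 1, 2 and 3, and the gene on linkage group 3 (17941987 to 17948040), with 87.8, 263 and 142 FPKM. A short gene of 852 bp on linkage group 3 (9587346 to 9588197) went the other way, with 505, 12.4 and 306 FPKM in testes 1, 2 and 3 and 0.0313 FPKM in ovary 2 only, a mean of 275 ± 248 FPKM in testes (SD, n = 3).

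The order seen among the highest genes ran through most of the set. Of the 224 genes, 174 (77.7%) were highest in testis 2, against 34.2% of the 7430 other genes with a testis mean of at least 10 FPKM that were above 0 in all testes. The full order testis 2, testis 3, testis 1 was found for 159 genes (71%), against 29.4% of those other genes. The opposite order was found for 21 of the 224 (9.38%), against 38.5% of the other genes. Testis 1 was lowest for 167 of the 224 (74.6%), against 35.9% of the other genes. The median ratio of testis 2 to testis 1 was 2.11 over the 224 genes and 0.93 over the other genes. That of testis 3 to testis 1 was 1.4 over the 224 and 1.01 over the others. That of testis 2 to testis 3 was 1.51 over the 224 and 0.941 over the others. Testis 2 was at least 2-fold above testis 1 in 124 of the 224 genes (55.4%), against 6.54% of the other genes. Testis 1 was at least 2-fold above testis 2 in 7 of the 224 genes (3.12%), against 2.91% of the others. The 124 genes had a median span of 4616 bp, against 9194 bp for the other 100. Their median testis mean was 30.2 FPKM, against 14.9 FPKM, but this mean holds testis 2, which set the split. In testis 1, which also set the split, the medians were 16.8 and 14.1 FPKM. In testis 3 they were 27.2 and 15.3 FPKM. Of the 124, 17 were listed at 0 in every ovary, against 4 of the other 100. Level, span and values of 0 in ovary were not separated here. The distribution over the 224 genes was broad, with its peak between 2-fold and 4-fold. The low testis-restricted genes did not follow: their median ratio of testis 2 to testis 1 was 0.837, and 23.7% of them were highest in testis 2. With 3 fish there is no test of whether 1 of them differs.

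**Figure D2:**
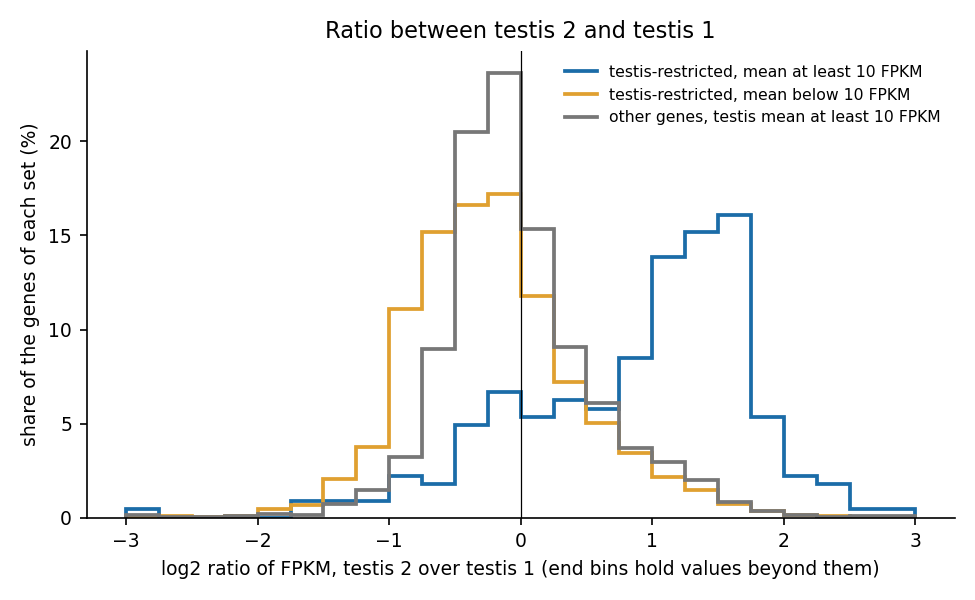
Distribution of the log2 ratio of FPKM in testis 2 over testis 1, as the share of genes in each bin, for the 224 testis-restricted genes (blue), the 1935 low testis-restricted genes (orange) and other genes with a testis mean of at least 10 FPKM (grey). The blue curve lies mostly to the right of 0 (median 1.08), and the other curves peak slightly to its left (medians -0.26 and -0.1).

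A mean that includes testis 2 favours genes that are high in it, so the choice was repeated on testes 1 and 3 alone. This gave 214 genes with a median ratio of testis 2 to testis 1 of 2.07, and 150 of them (70.1%) were highest in testis 2. Among the 7584 other genes with a mean of testes 1 and 3 of at least 10 FPKM the median ratio was 0.912, and 31.7% were highest in testis 2. In genes nearly absent from ovary, the ratio was below 1 at low levels in the other testes and above 1 from 10 FPKM. Where each ovary was under 0.1 FPKM, the median ratio was 0.814 for 851 genes at 1 to below 2 FPKM in the mean of testes 1 and 3, 0.765 for 1058 genes at 2 to below 5 FPKM and 0.866 for 339 genes at 5 to below 10 FPKM. It was 1.46 for 114 genes at 10 to below 20 FPKM, 2.4 for 68 genes at 20 to below 50 FPKM and 2.75 for 32 genes at 50 FPKM or more. The share of genes highest in testis 2 was 61.4%, 82.4% and 75% in these last 3 bins. Other genes in the same 6 bins had median ratios of 0.797, 0.828, 0.856, 0.893, 0.935 and 0.932. Testis 1 stands in both the ratio and the bins, and the part of this in the pattern was not tested. Scaled by median ratios, the same 224 genes had a median ratio of testis 2 to testis 1 of 2.3. With the testes scaled to equal sums it was 2.13. Choosing the genes after scaling moved the count and the ratio, to 380 genes with a median of 1.36 as TPM and to 69 genes with a median of 3.02 by median ratios. TPM raises every value here while the limits keep their numbers, so the testis limit is looser and the ovary limit stricter.

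**Figure D3:**
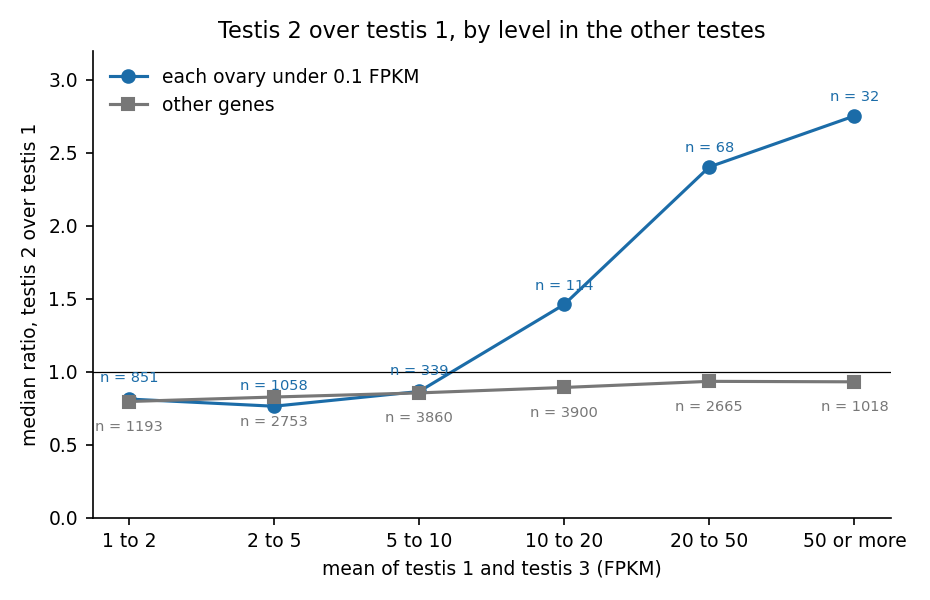
Median ratio of FPKM in testis 2 over testis 1 for genes grouped by the mean of testes 1 and 3 (FPKM), for genes with each ovary under 0.1 FPKM and at least 1 FPKM in testes 1 and 3 (blue circles) and for all other genes (grey squares); n is the number of genes. The blue points leave the grey ones at 10 FPKM and reach 2.75 at 50 FPKM or more, where the grey point is at 0.932.

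The same ratio also changed with the trace left in ovary. Among genes with a mean of testes 1 and 3 of at least 10 FPKM, the median ratio of testis 2 to testis 1 was 2.35 for 120 genes whose highest ovary was under 0.05 FPKM and 1.75 for 94 genes whose highest ovary was from 0.05 to below 0.1 FPKM. It was 0.897 for 171 genes from 0.1 to below 0.2 FPKM and 0.81 for 438 genes from 0.2 to below 0.5 FPKM. It stayed between 0.844 and 0.93 in the bins above that. The median ratio was thus largest in the genes with the least trace in ovary, and it was below 1 in every bin from 0.1 FPKM upwards. Median span differed between the bins too. It was 4294 bp under 0.05 FPKM and 10297 bp from 0.05 to below 0.1 FPKM. It was 12306 to 13350 bp in the bins from 0.1 to below 10 FPKM and 7071 bp at 10 FPKM or more. Ovary trace and span were not separated here.

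Spread between testes was wide in much of the set and small for a few genes. The median CV over the 224 genes was 0.398, against 0.128 over all other genes with a testis mean of at least 10 FPKM. For the 214 genes chosen without testis 2, the CV over testes 1 and 3 had a median of 0.255, against 0.0705 for the others. A CV over 2 testes is not directly comparable with a CV over 3. A CV of 0.5 or more was found for 74 of the 224 genes (33%), against 3.09% of the others. It was found for 4.24% of the low testis-restricted genes and for 9.44% of all listed genes. Without testis 2 it was found for 17 of the 214 (7.94%), against 1.15% of the others. The largest CV, 0.985, belonged to a gene on linkage group 9 (10397731 to 10402115) with 4.64, 34.3 and 9.5 FPKM in testes 1, 2 and 3. On linkage group 15, a gene from 5189859 to 5213266 stood at 13.6, 72.8 and 19.5 FPKM, with a CV of 0.924. On linkage group 10, a gene from 24472725 to 24476692 stood at 5.04, 27.9 and 10.2 FPKM, with a CV of 0.834. The genes at 9587346 on linkage group 3 and at 15839766 on linkage group 11, given above, completed the 5 most variable. Of these 5, only the gene on linkage group 3 was lowest in testis 2.

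The steadiest gene lay on linkage group 21 (17926970 to 17965349) and had 12.9, 12.9 and 13.4 FPKM in testes 1, 2 and 3, a CV of 0.0219. On linkage group 8, the gene from 18301138 to 18338397 stood at 18.8, 17.2 and 17.2 FPKM, and on linkage group 12 the gene from 8163498 to 8178639 stood at 9.99, 9.96 and 11.3 FPKM. On linkage group 11, the gene from 8933624 to 8939193 stood at 14.9, 12.8 and 14 FPKM. With the leading gene on linkage group 24 these were the 5 steadiest, and 4 of the 5 had a testis mean under 20 FPKM. Over the 224 genes the CV was larger in more abundant genes (Spearman's rho 0.47 across genes) and smaller in longer ones (rho -0.33). These points share the same 3 libraries, and across the other genes with a testis mean of at least 10 FPKM the rho of CV and level was 0.08. Without testis 2 the rho of CV and level over the 214 genes was 0.29, and that of CV and span was -0.28.

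In ovary, traces were found for most of the set. All 3 ovaries were above 0 for 123 of the 224 genes (54.9%), against 67.3% of the low testis-restricted genes, which met the same ovary limit. The share over all listed genes was 81.9%, but these include genes at any ovary level. The rule itself thus favours a lower share in the set than over the table. Of the 224, 44 had 1 ovary at 0 and 36 had 2 ovaries at 0. Every ovary was at 0 for 21 (9.38%), against 7.09% of all listed genes and 5.37% of the low testis-restricted genes. Genes above 0 numbered 155 in ovary 1, 171 in ovary 2 and 167 in ovary 3. Over all 22062 listed genes they numbered 19159, 19493 and 19300, so ovary 1 had the fewest there too. For the 123 genes above 0 in every ovary, the ratio of the testis mean to the ovary mean ran from 142 to 66817, with a median of 550. The limits of the rule set a floor under these ratios. The median over all listed genes was also higher in testes, at 5.1 to 6 FPKM, than in ovaries, at 0.463 to 0.947 FPKM. These ratios rest on ovary values whose worth in reads is unknown.

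The 21 genes listed at 0 in every ovary were short and abundant in testis. Their median span was 2018 bp, against 10284 bp for the 123 genes above 0 in every ovary, and 19 of the 21 spanned at most 4000 bp. Their median testis mean was 62.6 FPKM, against 18.7 FPKM for those 123 genes. Over testes 1 and 3 alone, the 21 genes at 0 in every ovary among the 214 had a median of 41.2 FPKM. The median over all 214 was 19.3 FPKM, and that of genes above 0 in every ovary is not given without testis 2. Besides the genes on linkage groups 18, 2, 21 and 22 described above, the 10 highest of them held 3 on linkage group 3. The gene from 17937943 to 17941748 had 91.3, 249 and 147 FPKM in testes 1, 2 and 3, the gene from 32686385 to 32688402 had 87.9, 211 and 157 FPKM, and the gene from 1148292 to 1149407 had 76.1, 75.7 and 197 FPKM. The last of these was highest in testis 3, with testes 1 and 2 about equal. On linkage group 6, the gene from 31196966 to 31198260 reached 49.2, 137 and 86.4 FPKM. On linkage group 2, the gene from 3751440 to 3753787 reached 44.7, 146 and 62.4 FPKM, and the gene on linkage group 1 (29607896 to 29609446) had 32.7, 120 and 49.7 FPKM. Of the 21 genes, 18 were highest in testis 2, and in the whole testis-restricted set 77.7% of the genes were. Fewer fragments fall on a short model at the same FPKM, and the part of length in the values of 0 was not tested. Leaving out an ovary can only raise this count, and the count was 36 without ovary 2, 35 without ovary 3 and 30 without ovary 1.

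**Figure D4:**
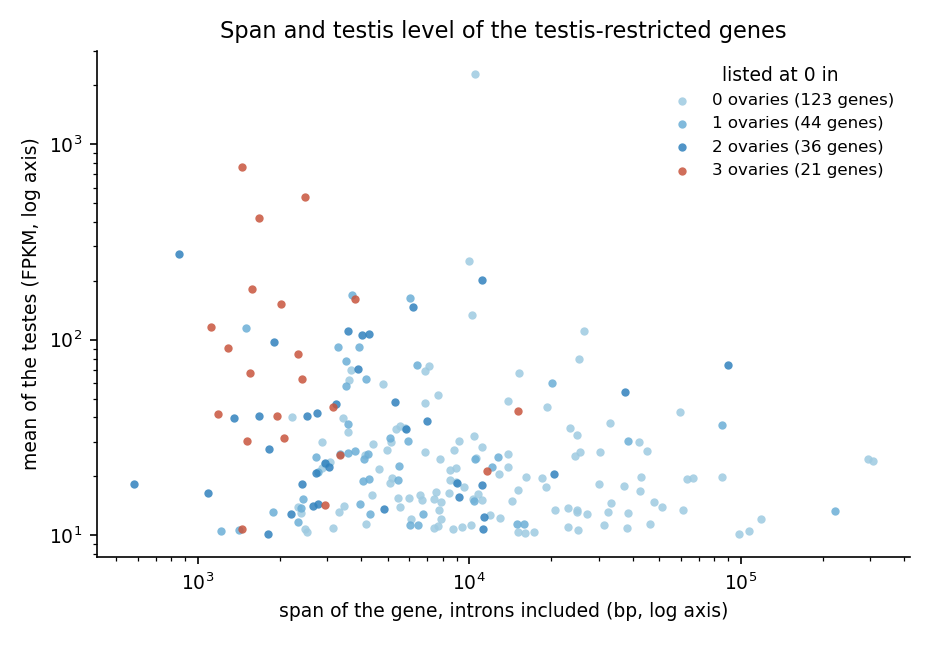
Span of each of the 224 testis-restricted genes (bp, introns included, log axis) against the mean of the 3 testes (FPKM, log axis), coloured by the number of ovaries in which the gene is listed at 0. The 21 genes at 0 in every ovary (red) lie mostly at spans of at most 4000 bp, with a median testis mean of 62.6 FPKM.

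The 224 loci were shorter at the median than those of the table as a whole, but this turned with the limits of the rule. A span, from the start to the end of a locus with introns, had a median of 6649 bp over the 224 genes, 12460 bp over the low testis-restricted genes, 9231 bp over the other genes with a testis mean of at least 10 FPKM and 9505 bp over all listed genes. The median span of the chosen genes was longer than that of all genes when the values were scaled to TPM (10414 bp), with an ovary limit of 0.5 FPKM (11073 bp) and with a testis mean of at least 5 FPKM (11110 bp). Spans of at most 1500 bp numbered 11 (4.91%), against 6.48% of all genes. Spans over 100000 bp numbered 5 (2.23%), against 3.2% of all genes. The shortest locus had 582 bp, on linkage group 12 (2802696 to 2803277), with 11.8, 32.4 and 10.9 FPKM in testes 1, 2 and 3. The 852 bp locus on linkage group 3 followed, and then loci of 1093 bp on linkage group 18 (12539344 to 12540436), of 1116 bp on linkage group 3, given above, and of 1188 bp on linkage group 13 (18171031 to 18172218). The longest had 306322 bp, on linkage group 22 (8246585 to 8552906), with 9.05, 35.2 and 27.6 FPKM. Next came 294009 bp on linkage group 5 (29826568 to 30120576), with 18.9, 33.4 and 21.3 FPKM, and 222273 bp on linkage group 17 (14605889 to 14828161), with 13.9, 14.8 and 11.3 FPKM. Loci of 118655 bp on linkage group 11 (20435691 to 20554345) and of 107264 bp on linkage group 17 (7948531 to 8055794) completed the 5 longest. The 56 genes with the shortest spans, up to 3318 bp, had a median ratio of testis 2 to testis 1 of 2.51, and the 56 with the longest, from 15134 bp, had 1.43. Among the 214 genes chosen without testis 2, the 54 shortest and the 54 longest had 2.55 and 1.17.

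Overlap with other loci was about as frequent as elsewhere in the table. The spans of 78 of the 224 genes (34.8%) overlapped another gene, against 39.6% of all genes, 40 (17.9%) lay inside a longer span, against 19.4%, and 14 (6.25%) held a shorter one, against 8.68%. Of the 40 nested genes, 17 had a host at 1 FPKM or more in each ovary, and 27 exceeded every host in testis mean. The rule chose the 40 for their testis mean but not their hosts. The same shares over other nested genes are not given here, so neither count is read as a trait of the set. A nested gene that did not exceed every host lies on linkage group 13. The gene from 18171031 to 18172218 had 24.4, 71.7 and 29.3 FPKM in testes 1, 2 and 3 and was at 0 in every ovary, and the gene around it, from 18097403 to 18186967, had 80.2, 101 and 41.5 FPKM in the testes and 0.0763 FPKM in ovary 3 only. The short gene also lies inside 3 further loci that the gene around it overlaps, and 2 of these averaged 7119 and 7484 FPKM in testes and 20897 and 18113 FPKM in ovaries. The longest gene of the set overlapped 10 others. The labels do not say how reads were divided between overlapping models. Among the 146 genes that overlap no other, the median ratio of testis 2 to testis 1 was 2.15.

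Members of the set were found on all 24 linkage groups, with 1 gene outside them. Linkage group 3 held the most, 23 of its 1491 listed genes (1.54%), and linkage group 18 the largest share, 12 of 767 (1.56%). Linkage groups 1 and 8 held 16 each. Linkage group 23 held 1 of 446 genes (0.224%), linkage group 7 held 3 of 866 (0.346%) and linkage group 9 held 5 of 1139 (0.439%), against 1.01% over all linkage groups. With each linkage group divided into 10 stretches of equal length, the share was 0.673% and 0.598% in the first 2 stretches and from 0.745% to 1.4% in the others. These shares rest on few genes each and were not tested.

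**Figure D5:**
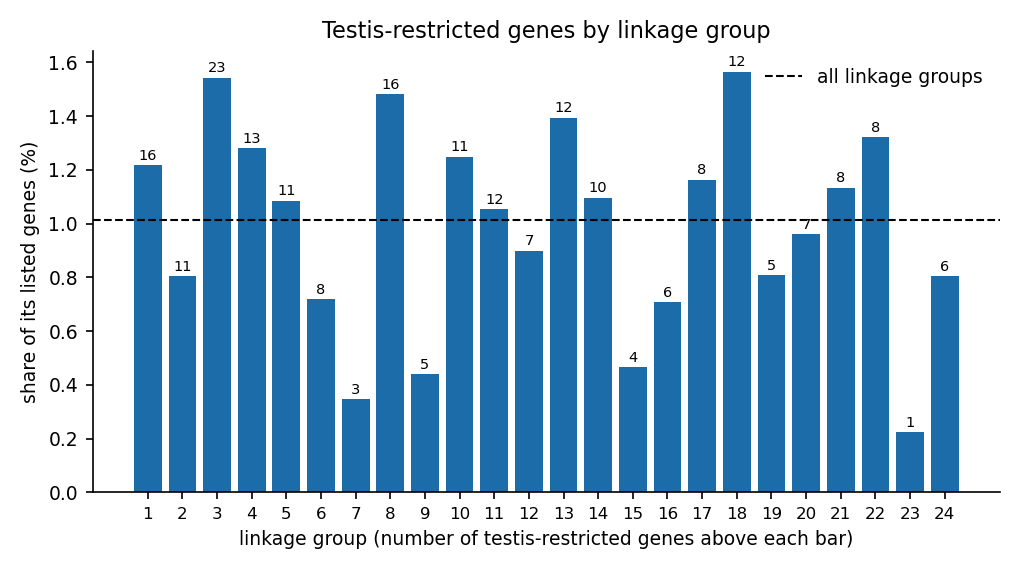
Share of the listed genes of each of the 24 linkage groups that belong to the testis-restricted set (percent), with the number of such genes above each bar and a dashed line at the share over all linkage groups, 1.01%. Linkage groups 18, 3 and 8 have the highest bars and linkage group 23 the lowest.

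Neighbours within the set were mostly close pairs. In the order of gene starts, 12 pairs of the 224 genes lay next to each other with separate spans, which takes in 24 genes (10.7%), and no run was longer than 2. The matching share for other gene sets of this size was not counted, so 10.7% is not read as many or few. Another pair, on linkage group 3 (22135973 to 22158502), overlapped. The gap between the genes of a pair was 118 to 3950 bp with a median of 230 bp and was at most 300 bp in 8 of the 12. Over all 18099 such pairs of neighbours in the table the median gap was 4135 bp, and 4.8% had a gap of at most 300 bp. Consecutive identifier numbers were found in 7 of the 12 pairs (58.3%), against 4.91% of all pairs. In 10 of the 12 pairs the testis means were within 2-fold of each other, against 56.1% of the 2361 neighbouring pairs of other genes with a testis mean of at least 10 FPKM. In 6 of the 12 both genes were at least 2-fold higher in testis 2 than in testis 1, against 1.06% of those other pairs. Of the single genes of the set, 55.4% were as well. That is a share of genes and not of pairs, and the share among pairs of set genes that are not neighbours was not counted.

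The pair with the highest summed means lay on linkage group 3, 238 bp apart. Its genes, from 17937943 to 17941748 and from 17941987 to 17948040, had 91.3, 249 and 147 FPKM and 87.8, 263 and 142 FPKM in testes 1, 2 and 3, close to each other in each testis. A pair on linkage group 17 (4404255 to 4411173) showed 30.4, 95.4 and 47.8 FPKM in its first gene and 22.9, 66.2 and 37.1 FPKM in its second. A pair on linkage group 1 (29606214 to 29609446), 162 bp apart, had 13.8, 51.9 and 24.8 FPKM and 32.7, 120 and 49.7 FPKM, and both genes were at 0 in every ovary. In these 3 pairs both genes kept the order testis 2, testis 3, testis 1.

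A pair on linkage group 13 (12003665 to 12010843) showed 18.8, 44.9 and 25.8 FPKM and 35.9, 98.3 and 54.8 FPKM in the testes. A pair on linkage group 10 (12729090 to 12822988), 3950 bp apart, had 25.8, 28.9 and 25 FPKM and 39.8, 46.5 and 41.7 FPKM, with little difference between testes in either gene; both lie inside a locus of 1701466 bp that averaged 14.4 FPKM in testes and 2.76 FPKM in ovaries. In 2 pairs the genes went opposite ways. On linkage group 8 (28967518 to 28995596) the first gene had 16.2, 5.45 and 10.2 FPKM in testes 1, 2 and 3 and the second 8.1, 21.9 and 12.5 FPKM. Likewise, on linkage group 1 (29990044 to 30004269) the first had 10.4, 21.9 and 14.5 FPKM and the second 18.9, 8.96 and 17.8 FPKM. This last pair and the pair at 29606214 made the stretch from 29 to 30 Mb of linkage group 1 the 1 Mb window with the most genes of the set, 4 of 26 listed. The table gives neither strand nor sequence, so whether close pairs are copies, divergent genes or parts of a single gene was not tested.

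The nearest genes outside the set had ovary levels like those of the table as a whole. The 417 genes that flank the 224 without overlap had a median of 6.86 FPKM in testis and 0.815 FPKM in ovary, against 5.61 and 0.788 FPKM over all genes outside the set. Among them 177 (42.4%) reached 1 FPKM in each ovary, against 40.5% of all genes outside the set, and 48 (11.5%) were low testis-restricted genes, against 8.86%. A gene at 1 FPKM or more in each ovary lay directly beside 139 of the 224 (62.1%), and beside 63.5% of the genes outside the set.

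Near the limits of the rule the values ran on without a gap. The members with the lowest testis means, on linkage groups 18, 19, 3, 8 and 12, had 10.1 to 10.4 FPKM, and the 5 genes next below the limit, on linkage groups 1, 11, 11, 5 and 15, had 9.76 to 9.93 FPKM. The members with the highest ovary value, on linkage groups 3, 2, 20, 14 and 13, reached 0.0979 to 0.0996 FPKM, and the 5 genes next above that limit, on linkage groups 11, 3, 7, 10 and 9, reached 0.1 to 0.103 FPKM. Some of the genes left out were abundant. The gene on linkage group 11 (13164039 to 13173833), at 0.1 FPKM in ovary 2, had 43.9, 130 and 72.9 FPKM in testes 1, 2 and 3. The lower limit in single testes left out 1 gene only, on linkage group 15 (5195644 to 5200091), which lies inside the variable gene at 5189859 and was listed at 0 in testis 1, at 45.7 FPKM in testis 2 and at 1.5 FPKM in testis 3.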

How the data were processed

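Total RNA of 3 testes and 3 ovaries went into Illumina libraries after Trizol extraction, as stated per the labels' protocols. The tools listed by the submitters' processing notes are HISAT2 2.0.4 and StringTie 1.3.3b, without order or settings. Genome build and filters: not given in the sources used here. A single table holds the FPKM values that the authors deposited with a column for each library, whose names match the sample titles; 0 columns belong to no sample. FPKM carries no read depth, so no counting interval or count model was used.

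Here the values were used as deposited, with Python 3.11.15, pandas 2.3.3, numpy 2.4.6, scipy 1.17.1 and matplotlib 3.10.9. No test was run, because the rule used the only contrast of the study. The genes and lists were chosen with earlier results of these data known. Named loci are, by a fixed rule, the 10 highest, the 10 highest at 0 in every ovary, the 5 extremes in CV and span, the 5 adjacent pairs with the highest sums, the richest 1 Mb window and the 5 genes on each side of a limit. Loci outside this rule, chosen after their values were seen, are the pair on linkage group 8 that went opposite ways, the overlapping pair on linkage group 3 and the gene from 18097403 on linkage group 13. The comparisons of testis 2 with testis 1 were also added after the data were examined. Neighbour and overlap counts were checked on simulated loci. Of the listed genes, 335 share an identical position with another gene, and 0 of the 224 do. Alternatives were TPM and median ratio scaling (genes above 0 in all 6 libraries), other limits, each library left out, and other definitions of overlap and neighbours.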

Additional observations from a re-analysis of the deposited data

How the results depend on the processing

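Of 108 values recomputed under other settings, 64 counted as unmoved and 44 as moved. Some of the unmoved values were fixed in advance. Other ovary limits cannot change the number of genes at 0 in every ovary. A largest allowed gap of 50 kb cannot drop an adjacent pair, because the widest gap was 3950 bp. A count was unmoved within 1.5 times its value, the median testis mean within the SD between testes (6.8 FPKM), the other medians within their 95% order-statistic interval (CV 0.372 to 0.438, span 5463 to 7895 bp, ratio 1.95 to 2.33), and the share highest in testis 2 within its exact 95% binomial interval (71.7% to 83%); these intervals run over genes, which are not replicates. As deposited, there were 224 genes with a median testis mean of 22.2 FPKM, a median CV of 0.398, a median span of 6649 bp, 21 genes at 0 in every ovary, 12 adjacent pairs, a median ratio of testis 2 to testis 1 of 2.11 and 77.7% highest in testis 2. Scaling to TPM gave 380 genes, a CV of 0.31, 36 genes at 0, a span of 10414 bp, a ratio of 1.36 and 57.1% highest in testis 2. It raises every value while the limits keep their numbers, so it also loosens the testis limit. Median ratio factors were 2.03 to 2.21 in testes and 0.314 to 0.669 in ovaries, so this scaling lowers testis against ovary for every gene; it gave 69 genes, a CV of 0.575, a span of 3571 bp, 4 pairs and a ratio of 3.02, and a CV of 0.446 for the same 224 genes. An ovary limit of 0.5 FPKM gave 800 genes, a CV of 0.264, a span of 11073 bp, 52 pairs, a ratio of 1.05 and 48.5% highest in testis 2. An ovary limit of 0.05 FPKM gave 125 genes, a CV of 0.466, a span of 4315 bp, 7 pairs and a ratio of 2.4. A testis mean of at least 5 FPKM gave 530 genes, a median mean of 8.43 FPKM, a CV of 0.278, a span of 11110 bp, 29 pairs, a ratio of 1.15 and 51.9% highest in testis 2. A testis mean of at least 20 FPKM gave 121 genes, a median mean of 37.4 FPKM, a CV of 0.487, a span of 4969 bp, 7 pairs, a ratio of 2.61 and 87.6% highest in testis 2. The spans under TPM and under the looser limits exceeded the 9505 bp of all genes, so that the set was then longer, not shorter, than the table as a whole. Without genes that overlap another, 146 genes were left. Among the scalings and limits named here, those that raised the number of genes gave the lower ratios; the cause was not tested.

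With each library left out of the choice of genes in turn, the number of genes was 214 to 283. The ratio of testis 2 to testis 1 was 2 to 2.12, but both libraries stayed in the ratio. These values show how the ratio varied with the genes chosen, and not what it would be without a library. The median CV, over the 2 testes left, was 0.255 without testis 2, 0.3 without testis 1 and 0.531 without testis 3. Genes at 0 in every remaining ovary numbered 21 to 36. Of the genes chosen, 70.1% to 79.1% were highest in testis 2, with all 3 testes still ranked. No paired analysis was possible because no test was run and the fish of the testis and ovary groups are different animals. Read depth is unknown, so the number of reads behind an ovary value below 0.1 FPKM, and behind a value of 0, is unknown too.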
